A study of Mus musculus with 12 samples.

Results

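Immediate-early genes are switched on within minutes of a signal, without new protein synthesis, and are switched off again by their own products. The group described here holds 10 of them: the AP-1 subunits Fos, Fosb, Jun and Junb, the related bZIP factor Atf3, the zinc finger factor Egr1, the orphan nuclear receptor Nr4a1, and the feedback genes Dusp1, Ier3 and Btg2. The members were chosen by gene name as immediate-early genes that also respond when a tissue is taken apart into cells. All 10 are among the 15910 genes of the deposited table, and all 10 passed the filter on low values (a mean of at least 10 normalized counts over the 12 libraries) that left 12631 genes for testing. Ier3 and Fosb passed it only through the group where each was highest: outside tumour livers at day 21 Ier3 averaged 8.55 over 9 libraries, and outside PBS livers at day 21 Fosb averaged 5.75.

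RNA came from hepatocytes dissociated out of perfused livers of female Balb/c mice aged 8 weeks at injection. The tumour mice had received 4T1 cells, a Balb/c mammary carcinoma line, by orthotopic injection, and the control mice had received PBS the same way. Hepatocytes were collected on day 21 or on day 4, and each of the 4 groups held 3 mice with 1 library each. The groups were tumour at day 21 (replicates 7, 8b and 9a), PBS at day 21 (10a, 11a and 12b), tumour at day 4 (1, 2 and 3) and PBS at day 4 (4, 5 and 6). The hepatocytes of tumour mice are called tumour livers for short, since the cells were injected at the site of origin and not into the liver. The labels do not say what the letters a and b mark, and give neither tumour size nor the presence of metastases.

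Growth factors, cytokines and stress act through MAP kinases, CREB and the serum response factor to switch these promoters on. The AP-1 and EGR proteins then pass the signal to later genes, and the phosphatase encoded by Dusp1 ends it by removing phosphate from the MAP kinases. In liver the programme is known from regeneration, acute inflammation and, as a handling effect, from enzymatic isolation of hepatocytes. All libraries here went through perfusion and dissociation, so the levels are those of isolated cells, and the share of each level that was present in the intact liver was not tested.

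The promoters of the 5 members whose groups did not overlap at day 21, and of Fos, the best known of the group, are shown so that their control sequences can be read beside the values. Each run is the 250 bases before the transcription start in RefSeq (GRCm38.p6), read 5′ to 3′ on the gene's strand. Capitals mark the cAMP response element TGACGTCA (CRE), its shorter core TGACG (either strand, so CGTCA also counts, and contained in each CRE), the TATA box TATAAA and the NF-kB element, searched by name. The windows are chr15:101266596-101266845 (+) for Nr4a1, chr1:191183334-191183583 (-) for Atf3, chr7:19310046-19310295 (-) for Fosb, chr17:26508473-26508722 (-) for Dusp1, chr17:35821463-35821712 (+) for Ier3 and chr12:85473640-85473889 (+) for Fos.
Nr4a1: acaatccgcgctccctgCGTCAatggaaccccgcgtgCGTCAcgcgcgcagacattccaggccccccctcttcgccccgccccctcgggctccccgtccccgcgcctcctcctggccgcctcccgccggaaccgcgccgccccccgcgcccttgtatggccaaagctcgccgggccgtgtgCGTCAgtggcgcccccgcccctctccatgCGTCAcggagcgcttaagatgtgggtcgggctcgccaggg
Atf3: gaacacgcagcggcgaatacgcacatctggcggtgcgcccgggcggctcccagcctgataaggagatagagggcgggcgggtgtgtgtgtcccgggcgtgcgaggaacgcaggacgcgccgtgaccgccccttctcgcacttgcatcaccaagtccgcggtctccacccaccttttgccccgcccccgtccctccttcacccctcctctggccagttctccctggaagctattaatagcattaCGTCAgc
Fosb: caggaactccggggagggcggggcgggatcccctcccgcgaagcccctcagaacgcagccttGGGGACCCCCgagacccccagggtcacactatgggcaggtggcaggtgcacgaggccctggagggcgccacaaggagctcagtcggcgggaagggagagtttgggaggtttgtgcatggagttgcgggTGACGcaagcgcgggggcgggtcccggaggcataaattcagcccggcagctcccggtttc
Dusp1: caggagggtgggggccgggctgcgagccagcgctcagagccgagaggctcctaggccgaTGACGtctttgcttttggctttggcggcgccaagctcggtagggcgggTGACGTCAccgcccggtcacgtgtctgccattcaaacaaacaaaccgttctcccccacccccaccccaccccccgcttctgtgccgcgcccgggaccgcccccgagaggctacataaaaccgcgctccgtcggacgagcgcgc
Ier3: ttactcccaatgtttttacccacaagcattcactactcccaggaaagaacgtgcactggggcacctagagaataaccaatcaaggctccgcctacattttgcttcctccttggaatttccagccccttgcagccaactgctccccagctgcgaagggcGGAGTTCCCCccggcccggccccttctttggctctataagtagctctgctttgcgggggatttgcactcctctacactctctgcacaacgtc
Fos: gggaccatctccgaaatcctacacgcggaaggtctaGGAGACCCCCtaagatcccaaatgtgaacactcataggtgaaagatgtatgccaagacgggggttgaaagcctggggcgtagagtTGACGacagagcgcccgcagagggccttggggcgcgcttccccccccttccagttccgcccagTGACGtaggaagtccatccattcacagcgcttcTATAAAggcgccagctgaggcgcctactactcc

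An entry was found for 9 of the 10 members, all except Egr1. The core TGACG was present in 7 of these 9 windows (Fos, Fosb, Junb, Atf3, Nr4a1, Dusp1 and Btg2), against 17.8% of all 32841 promoters of the same length. Nr4a1 held 4 copies, Fos 2 and Atf3 1, the last of them 7 bases before the start. The full CRE was present in Dusp1, 143 bases before the start, and in Btg2, 166 bases before it, against 1.55% of all promoters. The NF-kB element was found in Fos, Fosb and Ier3 (7.25% of all promoters), and Ier3 was the member without TGACG that carried it, 92 bases before the start. The TATA box stood in Fos alone of the members, 33 bases before the start (12.4% of all). Among motifs not capitalised, CCAAT was present in Jun, Junb, Ier3 and Btg2 (33.9% of all), the EGR element GCGGGGGCG in Fosb and Nr4a1 (2.57%) and the ETS core CCGGAA in Nr4a1 (12%). No window held the AP-1 element TGANTCA (6.75% of all), the STAT element TTCNNNGAA (7.02%) or the CArG box, searched by name (1.47%), which says only that these letters are not in this window. Both strands were searched for each motif.

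Immediate-early genes are known as a class for short gene bodies and short-lived transcripts. In the GENCODE annotation of GRCm38, Nr4a1 spans chr15:101254269-101274795, Atf3 chr1:191170296-191218039 and Dusp1 chr17:26505590-26562128, Fosb chr7:19302696-19310051, Ier3 chr17:35821684-35822923 and Fos chr12:85473890-85477273. All of these except Fos reach upstream of the RefSeq start used for the window, so the annotations place the start differently. The members' median span was 4698.5 bases, against 24474.5 for the 11766 tested genes with an annotated 3′ UTR, and their median exon number was 3 against 9. Not all were short: Dusp1 spans 56539 bases and Atf3 47744, with 75.2% and 71.1% of those tested genes at or below them. Nr4a1 spans 20527 (44.3%), and the longest of the other members was Fosb, at 7356 (16.5%). The pentamer ATTTA, the core of the AU-rich elements that shorten the life of an mRNA, occurred at least 2 times in the 3′ UTR of 9 of the 10 members and of 51.1% of the tested genes. The median density was 3.68 per kilobase of 3′ UTR in the members and 1.32 in the tested genes. Ier3 had the densest, at 8.16 per kilobase with 5 copies, and Fosb the sparsest, at 0.43 with 1 copy. Exons of Jun, Junb and Dusp1 share 232, 173 and 11 bases with Junos, Prdx2 and Ergic1 on the opposite strand, and the strand setting of the counting is not given in the sources used here.

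Depth ranged between 9375095 recovered reads, in replicate 8b, and 21809166, in replicate 11a, and the values below are counts normalized for depth by the authors. Albumin took 7.82% to 13.93% of reads, and the 12 hepatocyte markers were detected in every group with summed levels of 1600663.4 to 2104902.7 in tumour livers and 2202796.4 to 2528233.5 in PBS livers at day 21. None of the 12 was called at day 21. Markers of other cells moved with the groups: all 15 neutrophil and myeloid precursor markers were called higher in tumour livers at day 21, with summed levels of 26431.4 to 116806.1, against 102.3 to 427.2 in PBS livers, where Retnlg was at 0 in all 3. Of the 15, Lcn2 is also made by hepatocytes. Among tested markers, 6 of 6 monocyte, 1 of 11 Kupffer cell (Marco), 1 of 10 stellate, 0 of 9 sinusoidal endothelial, 1 of 2 cholangiocyte, 0 of 4 erythroid, 2 of 2 platelet and 1 of 1 lymphocyte markers were called higher. Over all tested genes the share was 5.42%. Called or not, 11 of 11 Kupffer cell (median log2 fold change 1.28), 8 of 10 stellate (0.78) and 8 of 9 endothelial markers (0.44) were above 0. With 1 library left out at a time the calls stayed at 15 for neutrophil and at 1 for lymphocyte markers and ranged from 5 to 6 for monocyte, 1 to 2 for Kupffer cell, 0 to 1 for stellate, endothelial and cholangiocyte, and 0 to 2 for erythroid and for platelet markers. Of the markers listed, 1 of 12 lymphocyte and 2 of 5 platelet markers were tested. Monocyte markers summed to 650.3 to 3383.6 in tumour livers and 33.6 to 77.8 in PBS livers at day 21. Scarce markers can pass the filter through the tumour livers at day 21 alone, so these counts are given as a description. Tumour day 21 replicate 7 had the highest sum of the neutrophil markers and of the Kupffer cell, endothelial, stellate and monocyte markers. In bulk RNA, fewer cells of a type and less RNA per cell cannot be told apart, and the part of other cell types in the values below was not tested.

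**Figure D1:**
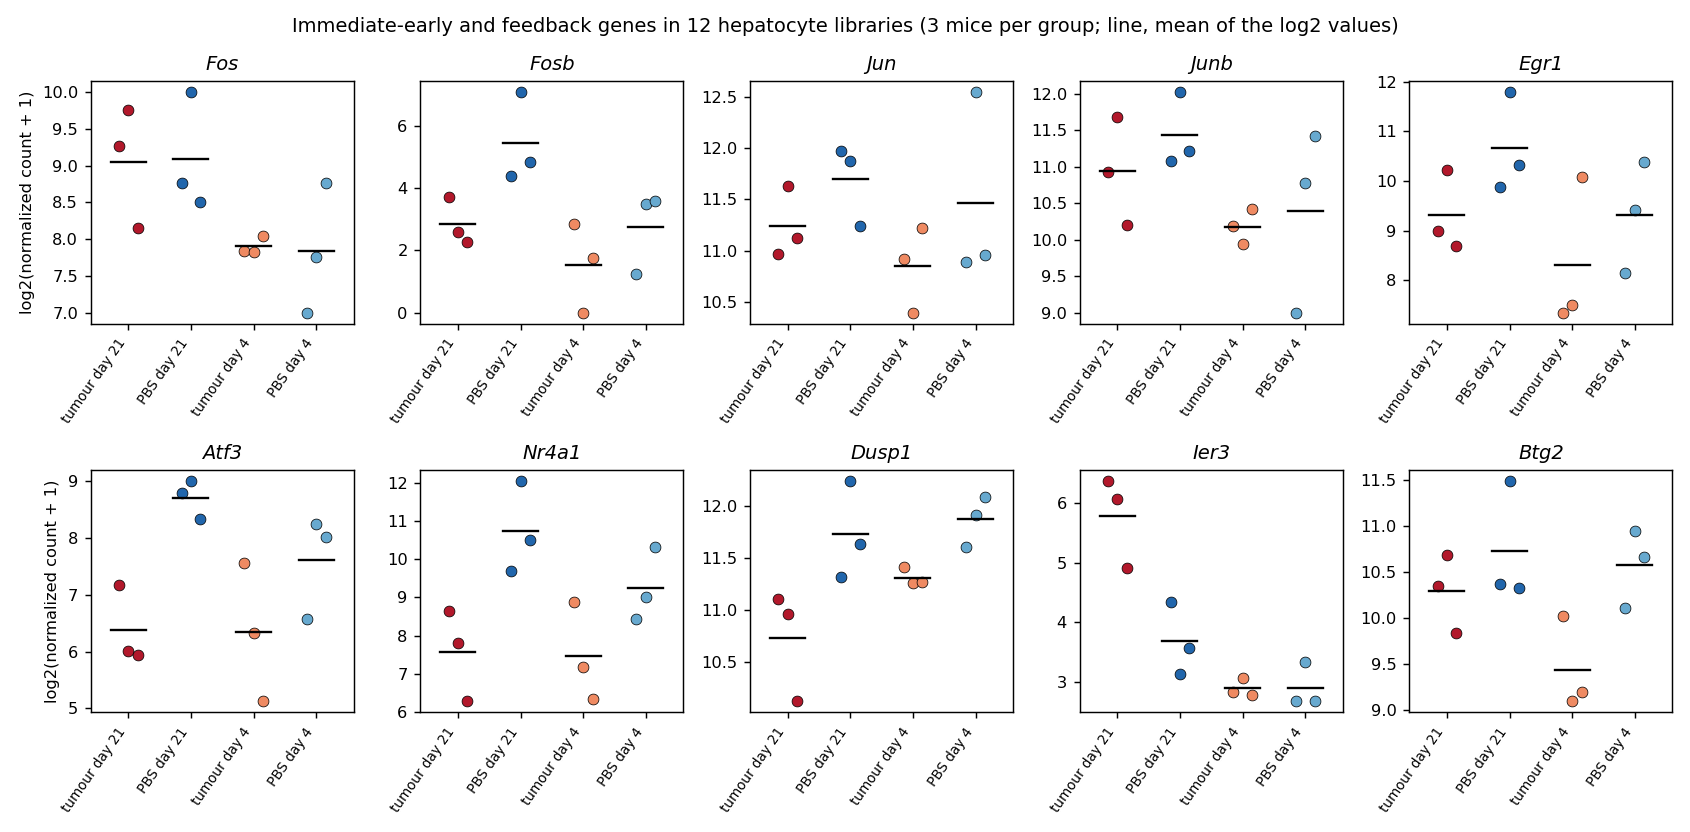
Levels of the 10 genes in each library as log2(normalized count + 1), 1 panel per gene, 1 point per mouse (3 per group) and a line at the mean of the log2 values. Ier3 points of tumour livers at day 21 lie above all other libraries, and Nr4a1, Atf3, Fosb and Dusp1 points of the same livers lie below those of PBS livers at day 21.

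Per kilobase of exon, the scale on which genes can be compared, Dusp1, Jun and Junb were the most abundant members, with means of 875, 865 and 854 normalized counts per kilobase over the 12 libraries. Btg2 averaged 493, Nr4a1 238, Egr1 216, Fos 180 and Atf3 96.8 on the same scale. Ier3, at 18.8, and Fosb, at 3.12, were the scarcest. The group with the highest mean was PBS at day 21 for 8 members, PBS at day 4 for Dusp1 and tumour at day 21 for Ier3. The lowest mean was that of tumour livers at day 4 for 8 members, and of tumour livers at day 21 for Atf3 and Dusp1. Of the 30 pairs of groups that neighbour each other in these orders, 26 had overlapping ranges. The 4 pairs that did not overlap were PBS day 21 above PBS day 4 for Fosb and for Atf3, tumour day 4 above tumour day 21 for Dusp1, and tumour day 21 above PBS day 21 for Ier3.

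The first comparison asked what a late tumour does to these genes in the liver cells. At day 21 Ier3 was higher in tumour than in PBS livers, and Nr4a1, Atf3 and Dusp1 were lower. Those 4 of the 10 members passed limma at an adjusted p under 0.05 (two-sided, Benjamini-Hochberg over all tested genes), against 7.85% of the 12631 genes tested. The 1 higher call compares with 5.42% of all genes and the 3 lower calls with 2.44%. The median log2 fold change of the 10 was -0.75, against 0.02 for all tested genes, and 9 of the 10 were below 0, against 48.1% of tested genes. The groups did not overlap for 5 members, Ier3 higher and Nr4a1, Atf3, Dusp1 and Fosb lower, against 17.2% of tested genes higher and 15.4% lower without overlap. Ier3 and Fosb entered the test through the day 21 group where they were high, so their difference here is given as a description. Of the other 8 members, 3 were called lower and none higher, and all 8 fold changes were below 0, with a median of -0.75.

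Nr4a1 (ENSMUSG00000023034), an orphan nuclear receptor that in liver promotes gluconeogenic gene expression downstream of cAMP, gave 399, 223 and 77.1 normalized counts in tumour livers at day 21, against 819, 4229 and 1453 in PBS livers. Every tumour library lay below every PBS library, and PBS replicate 11a stood far above the rest. On the log2 scale the fold change was -3.17 (SE 0.83, 95% interval -5.00 to -1.33), or 8.97-fold lower, with an adjusted p of 0.0425 by limma. Its window above carries 4 copies of TGACG.

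Atf3 (ENSMUSG00000026628), a stress-induced bZIP factor that mostly represses transcription, was measured at 144, 63.2 and 60.3 normalized counts in tumour livers, against 442, 514 and 321 in PBS livers at day 21. The groups were well apart, the highest tumour library being under the lowest PBS library. The log2 fold change was -2.34 (SE 0.60, 95% interval -3.66 to -1.01), with an adjusted p of 0.0387 by limma. Replicate 11a was again the highest library, but the other PBS libraries stood near it.

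Dusp1 (ENSMUSG00000024190), the phosphatase that inactivates p38, JNK and ERK, had a smaller fold change and the lowest spread of the 10 members. It gave 2196, 1987 and 1111 normalized counts in tumour livers, against 2542, 4838 and 3182 in PBS livers at day 21. The tumour livers were all below the PBS livers, with replicate 9a lowest and PBS replicate 11a highest. limma gave a log2 fold change of -1.0 (SE 0.27, 95% interval -1.59 to -0.42), with an adjusted p of 0.0409.

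Ier3 (ENSMUSG00000003541), an NF-kB target that modulates survival and ERK signalling, moved the other way. It gave 82.4, 66.5 and 29.0 normalized counts in tumour livers, against 19.2, 7.71 and 10.9 in PBS livers at day 21. All 3 tumour livers were above all 3 PBS livers, although the counts are small (180 reads in the 3 tumour libraries and 45 in the 3 PBS libraries) and these tumour libraries are the ones that brought the gene over the filter. The log2 fold change was 2.11 (SE 0.48, 95% interval 1.08 to 3.15), or 4.32-fold higher, with an adjusted p of 0.0184 by limma. The tumour libraries ranked 7, 8b, 9a for Ier3 and also for the summed neutrophil markers, at 116806.1, 46298.7 and 26431.4, and the part of those cells in the Ier3 level was not tested.

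Fosb, a close relative of Fos within AP-1, missed the threshold while its groups did not overlap. It was read at 12.1, 4.99 and 3.82 normalized counts in tumour livers and at 20.1, 134.5 and 27.2 in PBS livers at day 21. Tumour libraries held 23 reads of it in all and PBS libraries 245, of which replicate 11a had most. The log2 fold change was -2.58 (SE 0.92, 95% interval -4.56 to -0.59), with an adjusted p of 0.11 by limma and 0.0109 by DESeq2.

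The remaining AP-1 subunits overlapped between the groups. Fos, which binds DNA as a dimer with a JUN protein, gave 615, 860 and 283 normalized counts in tumour livers, against 432, 1022 and 361 in PBS livers at day 21, a log2 fold change of -0.03 (95% interval -1.16 to 1.10). Junb, a JUN family member that often restrains proliferation, gave 1947, 3267 and 1172, against 2156, 4155 and 2377, a log2 fold change of -0.50 (adjusted p = 0.641 by limma). Jun, a factor required for hepatocyte proliferation in the regenerating mouse liver, gave 1998, 3166 and 2227, against 4018, 3763 and 2415, a log2 fold change of -0.46 (adjusted p = 0.552 by limma). For Fos and for Junb the tumour livers ranked 8b, 7, 9a from high to low, and 11a was the highest of the PBS livers.

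Egr1 and Btg2 also overlapped. Egr1, which relays growth factor and metabolic signals, was read at 511, 1194 and 412 normalized counts in tumour livers, against 945, 3553 and 1279 in PBS livers at day 21. Its log2 fold change of -1.36 had a 95% interval of -3.16 to 0.44 and an adjusted p of 0.355 by limma, so a fall as large as that of Atf3 and no change both lie inside it. Btg2, an antiproliferative partner of the mRNA deadenylation machinery, gave 1305, 1651 and 912, against 1325, 2888 and 1282, a log2 fold change of -0.44 (95% interval -1.23 to 0.35, adjusted p = 0.519 by limma).

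**Figure D2:**
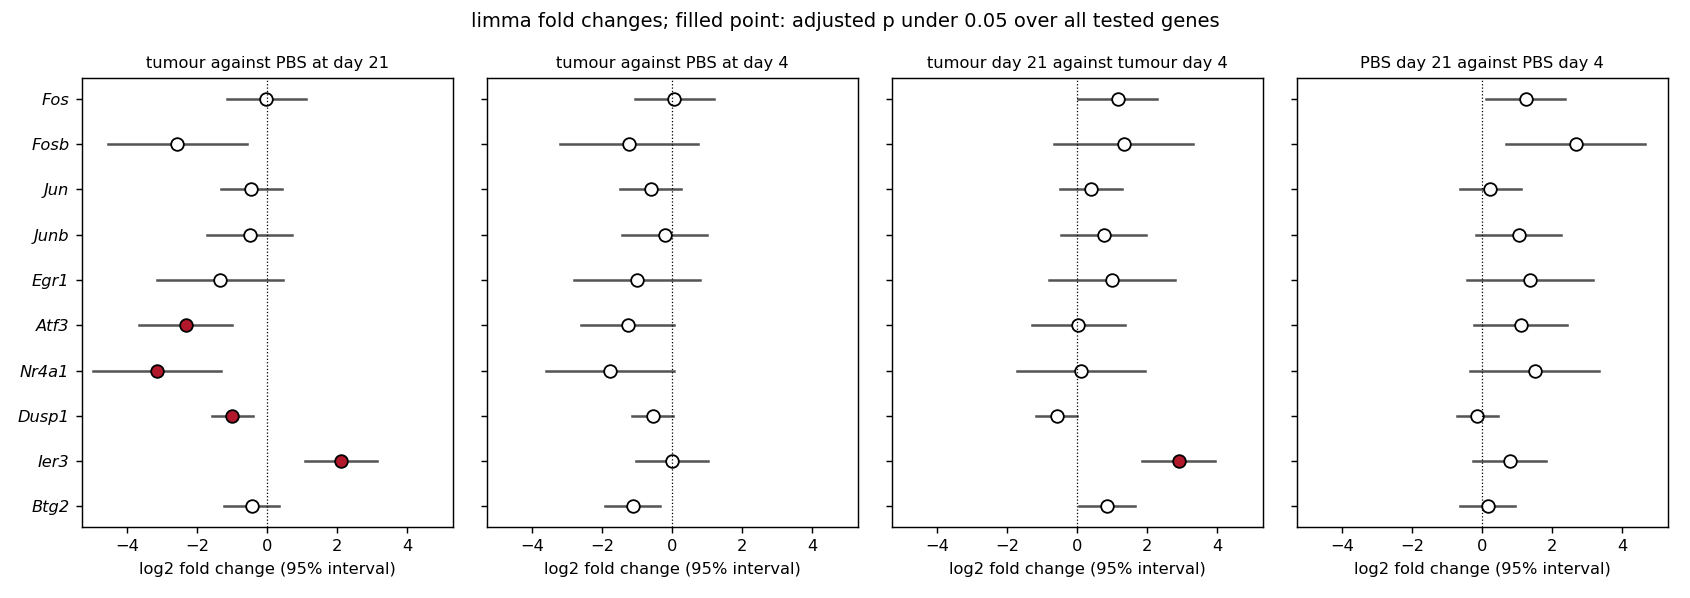
Log2 fold change of each gene (limma, log2(normalized count + 1)) in 4 comparisons, with its 95% interval as a bar; filled points have an adjusted p under 0.05 over all tested genes. At day 21 Nr4a1, Atf3 and Dusp1 lie below 0 and Ier3 above it, at -3.17, -2.34, -1.0 and 2.11, and no point of the day 4 or PBS panels is filled.

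The day 21 calls rested on few libraries. Without tumour replicate 7, without PBS replicate 11a or without PBS replicate 12b, 0 of the 10 members were called, while 326, 492 and 377 of all tested genes still were. Without tumour replicate 8b only Dusp1 was called, and without 9a only Ier3. Without PBS replicate 10a Nr4a1, Dusp1 and Ier3 were called and Atf3 was not, so Atf3 was called in no fit that drops a day 21 library. Nr4a1, Atf3 and Dusp1 were each called in 5 of the 12 leave-outs and Ier3 in 8. Leaving out day 4 libraries, which share only the estimate of spread, gave 2 to 4 calls. The log2 fold changes kept their sign in all 12 leave-outs and ranged from -3.70 to -2.51 for Nr4a1 (adjusted p 0.0316 to 0.144 by limma), from -2.74 to -2.12 for Atf3 (0.016 to 0.12), from -1.21 to -0.70 for Dusp1 (0.0328 to 0.154) and from 1.82 to 2.55 for Ier3 (0.00908 to 0.097).

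The same comparison at day 4 asked what the liver cells show soon after the injection. limma called 0 of the 10 members and 0% of the 12631 tested genes. At an unadjusted p under 0.05 there was 1 member, Btg2, and 761 genes in all (6.02%), edgeR called 0 genes, and DESeq2 called 1 gene that was no member. The members' median log2 fold change was -0.81 (all tested genes -0.03) and 9 of the 10 were below 0 (54.5% of tested genes). Btg2 and Dusp1 did not overlap between the groups and were lower in tumour livers, against 4.24% of tested genes.

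Other lists lay below 0 at day 4 as well, with none of their genes called. All 9 sinusoidal endothelial markers (median log2 fold change -0.42), all 10 stellate markers (-0.60), 9 of 11 Kupffer cell markers (-0.29) and all 7 tested mitochondrially encoded genes (-0.46) had fold changes below 0. Summed levels were 1325.5 to 2235.9 in tumour livers and 1816.5 to 3103.3 in PBS livers for endothelial, 905.5 to 2008.7 and 1041.1 to 3078.6 for stellate, and 595.5 to 3231.6 and 1141.6 to 2958.0 for Kupffer cell markers, no marker of these lists being at 0 in a whole group. Other markers went the other way at day 4, with none called. Of 15 neutrophil and precursor markers 14 were above 0 (median 0.94), and of 4 tested erythroid markers 3 (2.26). The neutrophil markers summed to 994.4 to 4131.7 in tumour livers and 355.1 to 456.4 in PBS livers. The part of any of these lists in the members' lower levels was not tested.

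Btg2 was read at 1042, 546 and 587 normalized counts in tumour livers at day 4, against 1105, 1972 and 1622 in PBS livers. Its highest tumour library lay just under its lowest PBS library. Tumour over PBS, the log2 fold change was -1.13 (SE 0.36, 95% interval -1.92 to -0.35), with an unadjusted p of 0.00867 and an adjusted p of 0.815 by limma. Dusp1 gave 2714, 2440 and 2459 in tumour livers, against 3112, 3846 and 4355 in PBS livers, a log2 fold change of -0.56 (95% interval -1.15 to 0.03, adjusted p = 0.815 by limma). The tumour libraries were tightly grouped, and all 3 were below the PBS libraries.

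Atf3 and Nr4a1 differed by more than Dusp1 at day 4 but with wide spread. Atf3 was read at 188, 79.8 and 33.9 normalized counts in tumour livers, against 93.9, 304 and 258 in PBS livers, a log2 fold change of -1.27 (95% interval -2.60 to 0.05). Nr4a1 gave 467, 144 and 80.7, against 342, 511 and 1275, a log2 fold change of -1.78 (95% interval -3.61 to 0.05). For Atf3 and for Nr4a1 tumour replicate 1 reached into the range of the PBS livers, and the adjusted p by limma was 0.815 for each.

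Of the others, Egr1 gave 162, 179 and 1081 normalized counts in tumour livers at day 4, against 282, 680 and 1329 in PBS livers, so replicate 3 stood apart from the other tumour livers. Jun gave 1942, 1349 and 2381, against 1898, 5971 and 1994, where PBS replicate 5 was the highest of all 12 libraries. Fos (229, 226 and 262 in tumour livers, against 127, 216 and 432 in PBS livers) and Junb (1162, 979 and 1364, against 511, 1751 and 2737) varied little among the tumour livers and widely among the PBS livers. Their fold changes on the log2 scale were -1.0 for Egr1, -0.62 for Jun, 0.06 for Fos and -0.22 for Junb. Fosb was at the detection limit in tumour livers, at 6.10, 0 and 2.34 normalized counts, where the 0 of replicate 2 allows up to 3.68 (3 reads, counting error only), against 1.34, 10.2 and 10.9 in PBS livers. Ier3 was low everywhere at this time, at 6.10, 7.37 and 5.85 in tumour livers and 5.37, 9.02 and 5.42 in PBS livers, a log2 fold change of 0.00 with a 95% interval of -1.04 to 1.03.

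The difference of the tumour effects, day 21 minus day 4, was tested directly for every gene. limma called 0 members and 0.689% of tested genes. At an unadjusted p under 0.05 there was 1 member, Ier3, whose tumour effect was larger at day 21 by 2.12 on the log2 scale (SE 0.67, 95% interval 0.65 to 3.58, adjusted p = 0.186), against 13.3% of tested genes at that threshold, and edgeR and DESeq2 called no member either. Ier3 passed the filter only through the tumour livers at day 21, so its difference is given as a description. For Nr4a1 the difference was -1.39 (95% interval -3.98 to 1.21), for Atf3 -1.07 (-2.94 to 0.81) and for Dusp1 -0.45 (-1.28 to 0.39). Over the 10 members, 7 differences were below 0, against 46.8% of tested genes. Of the 8 members that do not depend on 1 group for the filter, 6 were below 0. The lower levels of Nr4a1, Atf3 and Dusp1 in tumour livers were therefore not shown to differ between the days.

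Tumour livers at day 21 were next set against tumour livers at day 4, a comparison that shares the tumour livers of both effects above. Ier3 was the member called, at 82.4, 66.5 and 29.0 normalized counts at day 21 against 6.10, 7.37 and 5.85 at day 4, with no overlap. Its log2 fold change was 2.90 (SE 0.48, 95% interval 1.86 to 3.93), or 7.46-fold higher, with an adjusted p of 0.00328 by limma. That is 1 of 10 members, against 15.2% of tested genes in either direction and 10.5% higher, and it is the member that passed the filter only through these day 21 tumour livers. Of the 8 members that do not depend on 1 group for the filter, none was called. The call held in all 12 leave-outs, with adjusted p from 0.00253 to 0.0188 by limma. Of the 10 members only Dusp1 had a fold change below 0, against 49.4% of tested genes.

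Fos did not overlap between the tumour livers either, at 615, 860 and 283 normalized counts at day 21 against 229, 226 and 262 at day 4. Replicate 9a exceeded the highest day 4 library by a small margin. The log2 fold change was 1.15 (95% interval 0.02 to 2.28), with an adjusted p of 0.161 by limma and 0.0416 by DESeq2. Dusp1 was lower in each of the later tumour livers than in any earlier one, with a log2 fold change of -0.58 (adjusted p = 0.173 by limma). For Atf3 and Nr4a1 the fold changes were 0.03 and 0.11 on the log2 scale, with 95% intervals of -1.29 to 1.36 and -1.72 to 1.94. Non-overlap in this comparison was found for 17.7% of tested genes higher and 15.2% lower.

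Markers of other liver cells moved in the same comparison. Of the markers tested, 7 of 9 sinusoidal endothelial, 8 of 10 stellate, 2 of 11 Kupffer cell and 15 of 15 neutrophil and precursor markers were called higher in tumour livers at day 21 than at day 4. Over all tested genes the share was 10.5%. With 1 library left out at a time the marker counts ranged from 1 to 9, 2 to 9, 1 to 11 and 14 to 15 in that order. Without replicate 7 they were 1 for endothelial, 2 for stellate and 1 for Kupffer cell markers, without replicate 8b 9, 8 and 11, and without day 4 replicate 3 they were 2, 3 and 1. The summed levels were 3013.0 to 11208.8 against 1325.5 to 2235.9 for endothelial, 2635.5 to 9380.9 against 905.5 to 2008.7 for stellate and 3437.0 to 25598.5 against 595.5 to 3231.6 for Kupffer cell markers. Their part in the higher Ier3 level was not tested. Here too, scarce markers can pass the filter through the tumour livers at day 21 alone.

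In PBS livers, day 21 against day 4, limma called 0 members and 0% of tested genes. At an unadjusted p under 0.05 there were 2 members, Fos and Fosb, and 504 genes (3.99%), edgeR called 0 genes, and DESeq2 called 5 genes, none of them a member. All members except Dusp1 had a fold change above 0, with a median of 1.07 on the log2 scale, against -0.01 for all tested genes, of which 51.7% were below 0. Fosb (20.1, 134.5 and 27.2 normalized counts at day 21, against 1.34, 10.2 and 10.9 at day 4) and Atf3 (442, 514 and 321, against 93.9, 304 and 258) did not overlap, against 5.44% of tested genes higher without overlap. Their log2 fold changes were 2.68 (95% interval 0.69 to 4.66) and 1.10 (-0.23 to 2.42), each with an adjusted p of 0.938 by limma. Fosb passed the filter only through these PBS livers at day 21, so its difference here is given as a description. Of the 8 members that do not depend on 1 group for the filter, 7 were above 0, with a median of 1.07, and none was called. Markers of other liver cells lay above 0 in the same comparison, with none called: 11 of 11 Kupffer cell (median 0.84), 9 of 9 sinusoidal endothelial (0.86) and 9 of 10 stellate markers (1.0), while all 7 tested mitochondrially encoded genes lay below 0 (-0.36). Summed levels at day 21 were 3179.4 to 5043.1 for Kupffer cell, 3793.3 to 5359.8 for endothelial and 3044.0 to 5106.8 for stellate markers, against 1141.6 to 2958.0, 1816.5 to 3103.3 and 1041.1 to 3078.6 at day 4. The part of those cells in the members' levels was not tested. The day 21 PBS livers are the same livers that the day 21 tumour livers were set against, so their high level enters both comparisons.

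**Figure D3:**
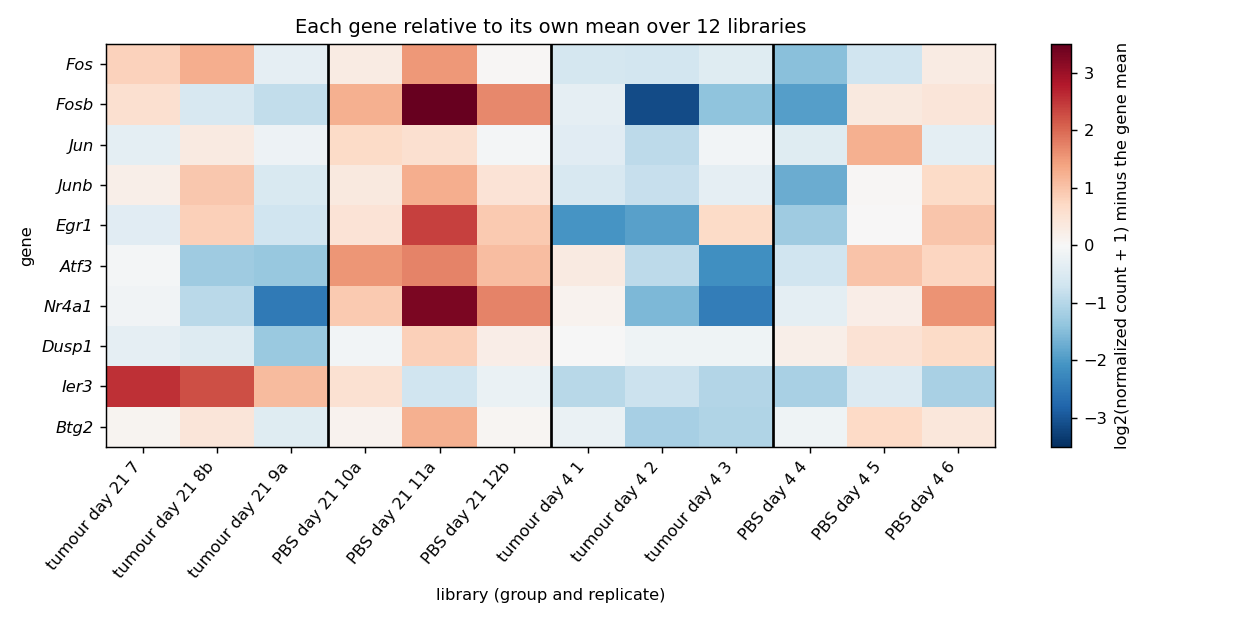
Each gene in each library as log2(normalized count + 1) minus the gene's mean over the 12 libraries (colour, red above and blue below), libraries in columns grouped as tumour day 21, PBS day 21, tumour day 4 and PBS day 4. PBS day 21 replicate 11a is red for 9 genes, and Ier3 is red in the tumour day 21 columns, where Atf3 and Nr4a1 are blue in 8b and 9a.

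Single libraries carried much of the variation. PBS day 21 replicate 11a was the highest of all 12 libraries for 8 of the 10 members, the exceptions being Jun (highest in PBS day 4 replicate 5) and Ier3 (tumour day 21 replicate 7). PBS day 4 replicate 4 was the lowest of its group for all 10 members, and tumour day 21 replicate 9a the lowest of its group for 9. The summed level of the 10 members was 9209.7, 12482.6 and 6287.4 in tumour livers at day 21 and 12718.9, 25105.2 and 12707.5 in PBS livers at day 21. It was 7917.0, 5950.1 and 8257.1 in tumour livers and 7479.2, 15270.1 and 14018.0 in PBS livers at day 4. At day 21 the sums did not overlap, but the highest tumour sum, 12482.6, lay close to the lowest PBS sum, 12707.5. At day 4 PBS replicate 4 lay among the tumour livers. The most abundant members weigh most in these sums. The sums of the hepatocyte markers and of the other DUSP, BTG and TOB genes were also lower in tumour livers at day 21 without overlap. Those of the upstream kinases and factors and of the neutrophil and monocyte markers were higher without overlap.

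The spread between mice of a group was wide for these genes. The within-group SD of log2 values had a median of 0.75 over the members and 0.28 over all tested genes. Fosb, at 1.27, Nr4a1, at 1.17, and Egr1, at 1.15, exceeded 98.6%, 97.7% and 97.5% of tested genes. Dusp1 was the steadiest member, at 0.38, which still exceeded 67.6% of tested genes.

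How closely a member followed the others from library to library varied. Pearson's r between a member and the mean of the other 9 over the 12 libraries was 0.91 for Fosb, 0.87 for Btg2, 0.84 for Junb, 0.78 for Nr4a1, 0.76 for Egr1, 0.70 for Atf3 and for Fos, 0.58 for Jun, 0.44 for Dusp1 and 0.05 for Ier3. With the group means removed it was 0.86 for Btg2, 0.85 for Junb, 0.84 for Fos, 0.83 for Dusp1, 0.80 for Fosb, 0.72 for Nr4a1, 0.54 for Atf3, 0.48 for Egr1, 0.34 for Jun and 0.14 for Ier3. Ier3 was the lowest by each measure. These are descriptions over 12 libraries that share their groups and 1 outstanding library, and no p is given.

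Outside the members, the 6 genes whose levels over the 12 libraries were most like the members' mean profile included Evi5l (r = 0.92), Smad7 (0.89), Zfp36l1 (0.89), Tgif1 (0.88) and Efna1 (0.87). Each of these had its highest value in PBS day 21 replicate 11a. Zfp36l1 averaged 1516 ± 197 normalized counts in tumour livers and 2767 ± 669 in PBS livers at day 21 (SD, n = 3 each). Efna1 averaged 575 ± 269 in tumour livers and 1504 ± 844 in PBS livers (SD, n = 3 each). With group means removed, the 6 most alike were Iqsec1 (r = 0.94), Tnfrsf1a (0.93), Qtrt1 (0.93), Tmem185b (0.92), Axin1 (0.92) and Ccdc9 (0.92).

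**Figure D4:**
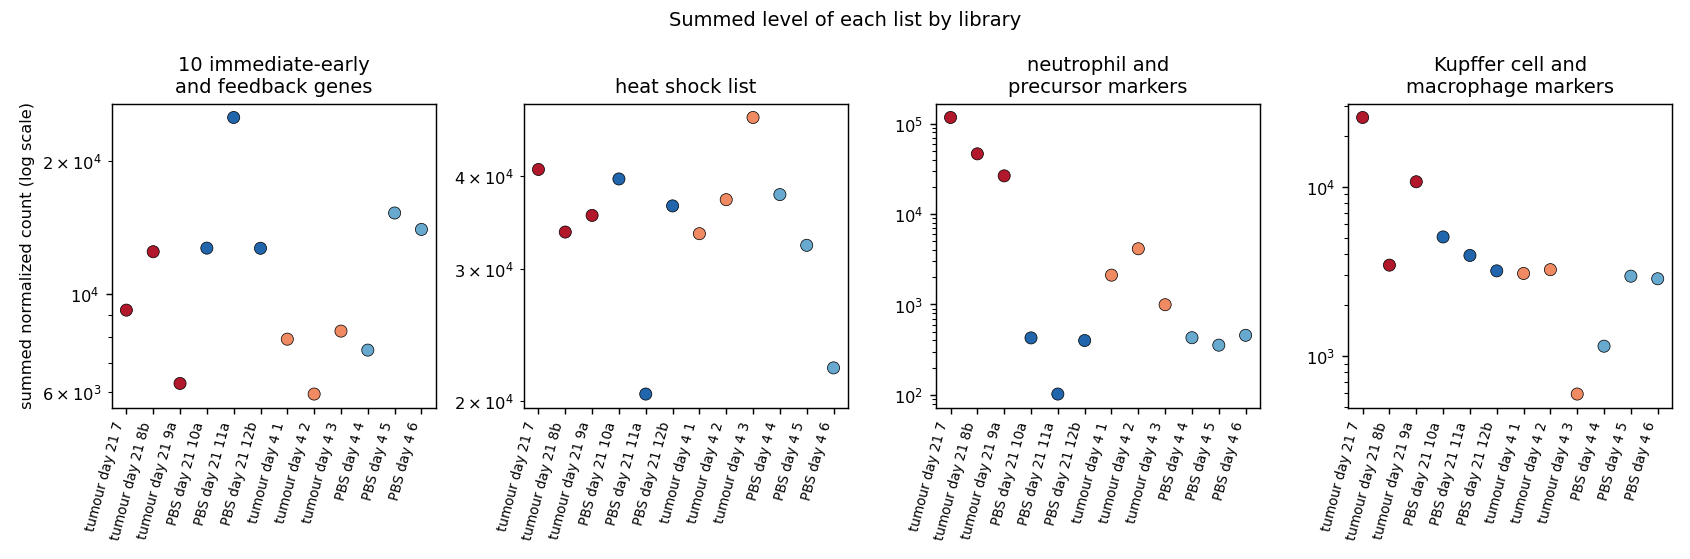
Summed normalized counts (log scale) of 4 gene lists in each of the 12 libraries, grouped as tumour day 21, PBS day 21, tumour day 4 and PBS day 4. PBS day 21 replicate 11a has the highest sum of the 10 members (25105.2) and the lowest of the heat shock list (20404.9), and tumour day 21 replicate 7 the highest of the neutrophil markers (116806.1).

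Heat shock genes, which also respond when tissue is taken apart, were examined beside the members. Their summed level ran from 33634.9 to 40798.3 in tumour livers and from 20404.9 to 39621.2 in PBS livers at day 21. The library with the highest members, PBS replicate 11a, had the lowest heat shock sum of all 12. At day 21, 1 of the 14 was called, Hspa1a, an inducible HSP70 gene with a near-identical copy in Hspa1b, at 40.7 ± 12.9 normalized counts in tumour livers and 4.95 ± 3.87 in PBS livers (SD, n = 3 each, log2 fold change 3.00, adjusted p = 0.0381 by limma). It was called in 6 of 12 leave-outs, in none of those that drop a day 21 library. The mean of Hspa1a in PBS livers at day 21 was under the filter's minimum. A gene this scarce can pass the filter through the tumour livers at day 21 alone, so its difference is given as a description. The 1 higher call of 14 compares with 5.42% of tested genes at day 21. The median log2 fold change of the 14 was 0.34 at day 21 and 0.48 at day 4, where 13 were above 0 and none was called. The 7 mitochondrially encoded genes had a median of -0.02 at day 21, with none called.

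Relatives of the members were examined next. Among 10 tested AP-1 and ATF genes outside the group, Jdp2, a repressor that dimerizes with JUN, was called higher at day 21, at 99.3 ± 99.5 normalized counts in tumour livers and 11.3 ± 3.8 in PBS livers (SD, n = 3 each). Its log2 fold change was 2.62 (adjusted p = 0.0362 by limma), and it was called in 8 of 12 leave-outs, not without tumour replicate 7 or any PBS liver of that day. Its mean in PBS livers was close to the filter's minimum of 10, and its SD in tumour livers was as large as the mean. Maff, a small MAF factor, had a log2 fold change of -1.44 (adjusted p = 0.272), Mafk 0.29 (0.446) and Jund -0.37 (0.601). The 1 higher call of 10 compares with 5.42% of tested genes. The list's median was 0.01, against -0.75 for the 10 members.

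In the 7 other EGR, NR4A and KLF genes none was called at day 21 by limma. At an unadjusted p under 0.05 there were 2, Klf4 and Klf6, against 23% of tested genes. Klf4 had a log2 fold change of 2.02 (adjusted p = 0.0609), Klf6 0.93 (0.0641), Klf2 1.16 (0.257) and Nr4a2, a receptor of the same family as Nr4a1, -1.39 (0.295). Nr4a2 averaged 7.53 normalized counts in tumour livers and 25.9 in PBS livers at day 21. Between the tumour livers, Klf6 rose by 2.06 (adjusted p = 0.00195 by limma) and Klf4 by 2.69 (0.0122) on the log2 scale at day 21 relative to day 4. Klf6 was called in all 12 leave-outs and Klf4 in 11, the exception being the fit without replicate 7. These 2 calls of 7 compare with 10.5% of tested genes called higher.

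Of 38 other immediate-early genes tested, 5 were called higher (5.42% of all tested genes) and 1 lower (2.44%) in tumour livers at day 21. The 5 were Nfkbiz and Tnfaip3, NF-kB regulators, with log2 fold changes of 1.21 (adjusted p = 0.00747) and 1.87 (0.0169), Ctgf, a matricellular target of YAP (2.06, 0.0225), Cebpd, an acute-phase transcription factor (2.29, 0.0421), and Ier5 (1.43, 0.0481). Zfp36l1, which binds AU-rich elements and speeds mRNA decay, was lower, at -0.85 (0.0274). The adjusted p-values are from limma. The list's median was -0.16. With 1 library left out at a time, Nfkbiz was called in all 12 leave-outs, Tnfaip3, Ctgf and Zfp36l1 in 9, Cebpd in 5 and Ier5 in 3. Tumour replicate 7 was needed for each of these except Nfkbiz.

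Against day 4, 10 of these 38 genes were called higher in tumour livers at day 21 (10.5% of tested genes) and none lower. They included Ctgf (2.36, adjusted p = 0.00888), Ier5 (1.86, 0.0107), Pim1, a survival kinase (1.81, 0.0129), Nfkbiz (0.93, 0.0172), Rhob (1.34, 0.0217) and Bcl3 (0.99, 0.0272), as log2 fold changes with adjusted p from limma. Of the 10, Ctgf was called in all 12 leave-outs and Nfkbiz in 10, and only these were called without tumour day 21 replicate 7.

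Dusp6, the cytoplasmic phosphatase specific for ERK, was the 1 gene called of 8 other DUSP genes at day 21, and it was lower like Dusp1. It averaged 1035 ± 371 normalized counts in tumour livers and 2997 ± 935 in PBS livers (SD, n = 3 each), a log2 fold change of -1.55 (SE 0.29, adjusted p = 0.00747 by limma). It was called in all 12 leave-outs, with log2 fold changes of -1.82 to -1.31. The 1 lower call of 8 compares with 2.44% of tested genes. Dusp8 (1.57, adjusted p = 0.279), Dusp16 (-0.32, 0.346) and Dusp10 (-0.42, 0.56) did not pass, and the list's median was 0.16. Against day 4, tumour livers at day 21 had Dusp4 higher by 2.74 on the log2 scale (adjusted p = 0.0121), a call lost without replicate 7. That is 1 of 8, against 10.5% of tested genes called higher.

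Of the Btg2 relatives, Tob1 (-0.40, adjusted p = 0.147), Btg1 (-0.55, 0.183) and Tob2 (0.24, 0.632) were not called at day 21 by limma. Tob1 and Btg1 had an unadjusted p under 0.05, against 23% of tested genes. Of 23 upstream kinases and transcription factors, Egfr, the receptor for EGF family ligands, was called higher at day 21, at 6727 ± 3614 normalized counts in tumour livers and 1171 ± 508 in PBS livers (SD, n = 3 each). Its log2 fold change was 2.48 (SE 0.51, adjusted p = 0.014 by limma), and the call was lost without tumour replicate 7, PBS replicate 11a or PBS replicate 12b. The 1 higher call of 23 compares with 5.42% of tested genes. The median of the 23 was 0.18. Between the tumour livers Map3k1 (0.82, adjusted p = 0.0111), Elk3 (1.71, 0.0423) and Mkl1 (1.16, 0.0436) were higher at day 21 on the log2 scale, none of them called without replicate 7. These 3 calls of 23 compare with 10.5% of tested genes called higher.

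**Figure D5:**
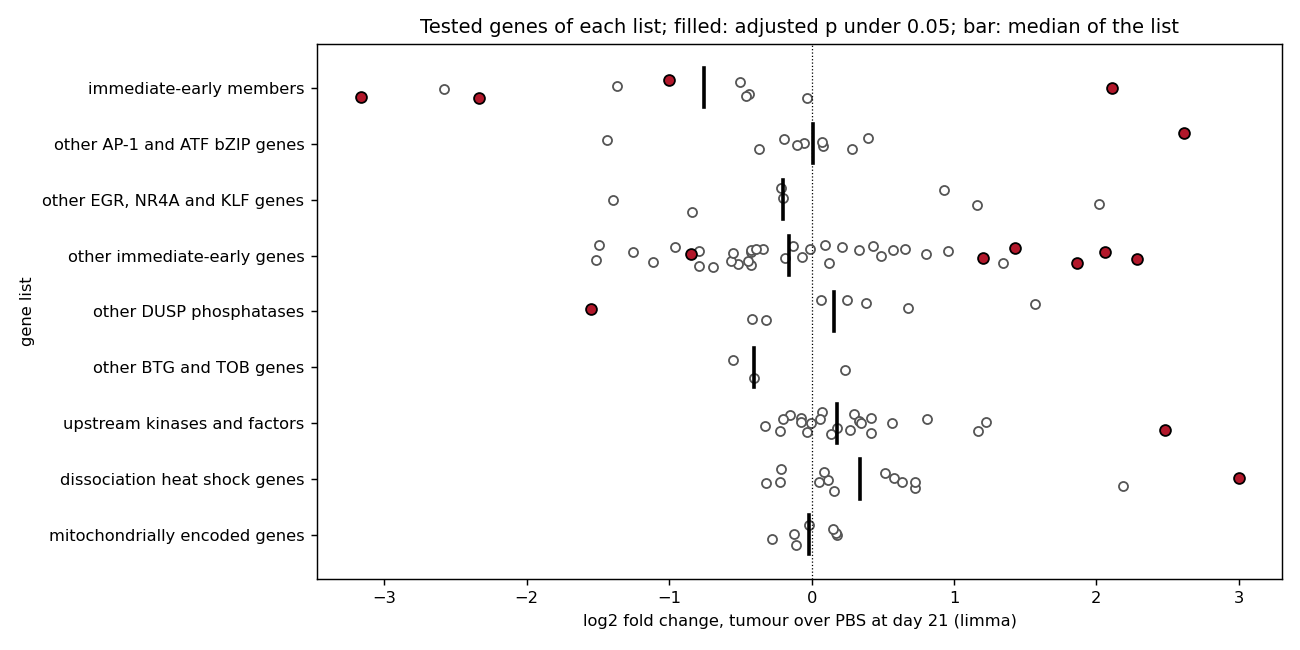
Log2 fold change of tumour over PBS livers at day 21 (limma) for every tested gene of the 10 members and 8 companion lists; filled points have an adjusted p under 0.05 and the bar is the list's median. The members' median is -0.75, and the median is 0.01 for the other AP-1 and ATF genes, 0.16 for the other DUSP genes and 0.34 for the heat shock genes.

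No gene of the companion lists was called by limma at day 4 or between the PBS livers. At day 4 the unadjusted p was under 0.05 for 2 of 10 AP-1 and ATF genes, 2 of 7 EGR, NR4A and KLF genes, 6 of 38 other immediate-early genes, 2 of 8 DUSP genes and 2 of 3 BTG and TOB genes. Over all tested genes the share was 6.02%. Fold changes at day 4 were below 0 for 8 of the 10, 6 of the 7, 29 of the 38, 4 of the 8 and 3 of the 3, against 54.5% of tested genes. The list medians at day 4 were -0.27, -0.43, -0.42, -0.04 and -0.64 in that order, against -0.81 for the 10 members.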

How the data were processed

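Hepatocyte RNA of 12 mice, 3 in each of 4 groups, was sequenced after poly(A) selection, per the labels' protocols. Per the submitters' processing notes, the authors used cutadapt, STAR 2.4.2a, HTSeq and DESeq2, with GRCm38 as the build. Which annotation and strand setting they counted with is not given in the sources used here. Deposited values are the authors' gene counts divided by a size factor per library, a normalized signal without correction for gene length. Low values were multiples of 1 step per library, so whole reads were recovered: 100.0% of values came out within 0.1 of a whole number.

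Genes with a mean of at least 10 were tested with limma 3.58.1 in R 4.3.3 (lmFit, then eBayes with the trend and robust options) on log2(value + 1), with 1 mean per group over all 12 libraries. This scale understates the fold of low genes. P-values are two-sided and Benjamini-Hochberg adjusted over all 12631 tested genes. A call is an adjusted p under 0.05. Each animal is 1 replicate, so p-values set group differences against the spread between mice. limma pools that spread over the 4 groups and moderates it with that of all tested genes. Errors given as ± are SDs, SE is limma's standard error, and intervals are 95% intervals of the log2 fold change. On the recovered reads edgeR 4.0.16 and DESeq2 1.42.0 were alternatives; other alternatives changed the pseudocount, the filter, the scaling or the groups fitted, or left out 1 library. The fits were run on simulated counts with known changes in a single group, as a check that they recover the direction of those changes. The error rate for these members was not tested that way. Comparisons that share a group are not independent.

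The members, the 8 companion lists and the 10 marker lists were chosen with earlier results of these data known. All members are named. From each companion list up to 4 genes were named in order of unadjusted p, and further called genes up to 6. Likeness is Pearson's r of log2 values with the members' mean standardized profile. One of the genes it ranks is not reported here. Positions come from GENCODE M21, to which 15892 of 15910 genes matched, and promoters from RefSeq.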

Additional observations from a re-analysis of the deposited data

How the results depend on the processing

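With 3 mice a group, each fold change rests on 6 libraries, and depth limits mainly Ier3 and Fosb, which had 180 and 23 reads in the tumour livers at day 21. Over 21 alternatives, 1025 values for the members gave 947 with the same direction and side of the threshold, 33 weaker, 2 that newly passed and 43 with the opposite sign. None of the 5 called results changed sign. Why the others did was not tested.

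At day 21 the number of members called was 1 with a minimum mean of 50, which removes Ier3 and Fosb from the test, 2 after scaling to total reads, 1 in the fit of the 2 groups alone, and 0 to 4 with 1 library left out. For tumour livers at day 21 against day 4 it was 0 with the minimum of 50 and 2 by DESeq2. The number of all genes called at day 21 was 584 with the minimum of 50, 1778 by DESeq2, 620 in the fit of 2 groups and 326 to 1171 in the leave-outs. At day 4 it was 1 by DESeq2 and 0 to 3 in the leave-outs. For the difference of the tumour effects it was 38 with a pseudocount of 0.5, 166 with no filter, 1 with the minimum of 50, 54 after scaling to total reads, 0 by edgeR, 479 by DESeq2 and 0 to 173 in the leave-outs. For tumour livers at day 21 against day 4 it was 1050 with the minimum of 50, 576 in the fit of 2 groups and 557 to 2010 in the leave-outs. For PBS livers it was 5 by DESeq2 and 0 to 15 in the leave-outs.

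Opposite signs on the log2 scale were -0.12 by edgeR and by DESeq2 for Fos at day 4, and 0.017 with TMM and 0.05 with total reads for Ier3 at day 4. For the difference of effects they were 0.069 by edgeR and 0.074 by DESeq2 for Fos, and 0.062 by edgeR and 0.074 by DESeq2 for Junb. For tumour livers at day 21 against day 4 they were -0.12 by edgeR and -0.17 by DESeq2 for Atf3, and for PBS livers 0.054 with total reads for Dusp1. Total reads moved the median of all genes to 0.16 between tumour livers and 0.18 between PBS livers of the 2 days.

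Leave-outs that changed sign gave ranges of -0.38 to 0.43 for Fos at day 21, and at day 4 of -0.36 to 0.52 for Fos, -0.92 to 0.29 for Junb and -0.11 to 0.21 for Ier3. For the difference they were -0.55 to 0.36 for Fos, -0.38 to 0.45 for Jun, -0.80 to 0.42 for Junb and -0.89 to 0.53 for Egr1. Between tumour livers they were -0.58 to 0.64 for Atf3 and -0.44 to 0.81 for Nr4a1, and between PBS livers -0.057 to 0.77 for Jun, -0.39 to 0.071 for Dusp1 and -0.23 to 0.36 for Btg2. Fosb fell under the filter without PBS day 21 replicate 11a. No paired analysis was possible because the groups share no replicate labels.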
